A study of Mus musculus with 6 samples.

Results

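The BCL-2 family was followed as 10 genes chosen by symbol in the deposited table of 54532 mouse genes, and each of the 10 was found there by its exact name. They fall into 3 roles. The effectors *Bax* and *Bak1* encode the proteins that form pores in the outer mitochondrial membrane. *Bcl2*, *Bcl2l1* (BCL-XL) and *Mcl1* encode the anti-apoptotic members. *Bcl2l11* (BIM), *Bbc3* (PUMA), *Pmaip1* (NOXA), *Bid* and *Bad* encode BH3-only proteins, so that 7 members are pro-apoptotic and 3 anti-apoptotic.

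In the mitochondrial pathway of apoptosis, anti-apoptotic proteins hold BAX, BAK and the BH3-only proteins in check by binding them. Stress signals raise or activate BH3-only proteins, and once BAX and BAK are free to assemble, cytochrome c leaves the mitochondrion and caspases are activated. Much of this control lies in phosphorylation, cleavage and protein turnover, which mRNA levels do not report.

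RNA was measured in MLE12, a mouse lung alveolar epithelial line of label strain C57BL/6J, kept in HITES medium with serum. The line is immortal and was derived with the large T antigen of simian virus, a viral protein that binds p53. Control cells (Ctrl shRNA) were infected with 1 lentivirus carrying an empty or control construct, at 50 infectious particles per cell. The other cells (Idh3α shRNA + Slc25a1 shRNA, "knockdown" below) received 2 lentiviruses, each at 50 particles per cell, that silence *Idh3α*, a subunit of mitochondrial isocitrate dehydrogenase, and *Slc25a1*, the mitochondrial citrate carrier. Virus dose and knockdown therefore cannot be told apart. Medium was changed after 16 h, culture went on for 80 h, and 3 samples per group were sequenced. The study silenced both genes to make citrate accumulate in mitochondria, and it also asked by which route the cells died. The comparison here addresses whether the mRNA of apoptosis regulators differed between the groups. No source says that the 3 samples of a group were separate cultures, so p-values measure only the spread between these samples. In bulk RNA, fewer cells of a type and less RNA per cell cannot be told apart.

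Each sample held 27273502 to 28535653 counted reads in the controls and 27715153 to 28112519 in the knockdown. Values below are CPM, the reads of a gene relative to all reads of its sample, with library sizes scaled by the TMM method. Ctrl shRNA replicate 2 stood apart from the other 5 libraries: its 100 most abundant genes took 27.2% of reads against 12.5 to 12.9%, mitochondrially encoded genes took 6.49% against 1.57 to 1.80%, and 16681 genes had a read against 19902 to 23147. The members are therefore given with and without it, as are many of the other genes. Where groups are called apart without it, only Ctrl shRNA replicates 1 and 3 stand against the knockdown samples. Such a separation is easier to reach, and its share over all genes was not counted. The control samples, always listed as replicates 1, 2 and 3, had 79.8, 137 and 93.0 CPM of *Idh3α*, against 58.5, 57.9 and 55.5 CPM after silencing. For *Slc25a1* they had 103, 98.7 and 108 CPM, against 68.9, 69.6 and 63.0 CPM. All knockdown samples lay below all controls for both targets, with log2 differences of -0.85 and -0.62. Neither passed the edgeR test with all 6 samples (adjusted p = 0.254 and 0.104), and both did without replicate 2 (adjusted p = 0.0142 and 0.00649). DESeq2 with all 6 samples called both lower (adjusted p = 0.0193 and 5.37e-06), as did limma with sample quality weights (adjusted p = 0.00289 and 0.00103). The 8 alveolar type 2 markers together had 524 to 533 CPM in the controls against 442 to 473 CPM in the knockdown. Of these, *Nkx2-1* (324 to 343 against 277 to 302 CPM) and *Sftpc* (44.1 to 97.3 against 27.2 to 35.9 CPM) lay lower in every knockdown sample, *Napsa* lay higher (0.453 to 0.759 against 1.18 to 1.38 CPM) and *Abca3* overlapped. Of the 5 type 2 markers tested 3 had estimates above 0, and *Sftpd* had 0 counts in all 6 samples. The 4 alveolar type 1 markers together had 839 to 909 CPM against 680 to 743 CPM, led by *Ager* (365 to 470 against 307 to 350 CPM). EdgeR called no marker with all samples, and without replicate 2 it called *Sftpc* and *Ager* lower (log2 difference -0.65 and -0.49, adjusted p = 0.0438 and 0.0223). *Krt19*, an epithelial keratin and the most abundant marker per length, overlapped with all samples and was apart, the knockdown higher, without replicate 2 (log2 difference 0.16 and 0.22, edgeR adjusted p = 0.496 and 0.200). Of the 4 epithelial markers tested 2 had estimates above 0. *Epcam* lay lower in every knockdown sample (3.24 to 4.01 against 2.39 to 3.20 CPM), and *Cdh1* lay higher (68.4 to 74.9 against 75.7 to 83.8 CPM). The part of the marker differences in the results below was not tested. The 4 leukocyte markers summed to 1.65 to 1.92 CPM against 2.41 to 2.76 CPM, and the defining leukocyte markers *Ptprc* and *Adgre1* had 0 counts in all 6 samples, where 3 counts would be 0.0969 to 0.152 CPM.

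No member of the family was called in the edgeR quasi-likelihood test, in which a call needs an adjusted p under 0.05 (Benjamini-Hochberg, 15307 genes with enough reads). All 10 members were tested. The count was 0 higher and 0 lower, against 0.0588% of all tested genes higher and 0.00653% lower, so hardly any gene was called with all 6 samples. Without Ctrl shRNA replicate 2 the count was again 0 and 0, against 1.11% higher and 0.675% lower. At an unadjusted p under 0.05 with all samples, 1 member was higher (*Bcl2l11*) and 1 lower (*Bad*), against 7.47% and 6.65% of all tested genes. The groups did not overlap for the same genes, *Bcl2l11* higher and *Bad* lower, against 14.7% and 10.7% of all tested genes. These shares of the members lie near those of all genes.

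Other tools called up to 3 members. DESeq2 with all samples called 0 higher and 0 lower, against 1.64% and 1.07% of its tested genes. DESeq2 without Ctrl shRNA replicate 2 called *Bid* higher and *Bad* lower, against 4.12% and 2.78%. Limma with sample quality weights, which gave Ctrl shRNA replicate 2 a weight of 0.101, called *Bcl2l11* and *Bid* higher and *Bad* lower, against 8.67% and 6.34% of all tested genes. Over the 16 alternatives to the edgeR fit, the adjusted p ran from 0.00366 to 0.678 for *Bid*, from 0.0143 to 0.691 for *Bad* and from 0.0386 to 0.679 for *Bcl2l11*. For the other 7 members the lowest was 0.212 (*Bbc3*). All 3 members named by any of these fits encode BH3-only proteins, which is the role of 5 members. *Bid* and *Bcl2l11* were higher and *Bad* lower, and whether calls gather in this role was not tested. Among 11 further family genes tested, DESeq2 without replicate 2 called 1 higher and 2 lower, as did limma with sample quality weights. The higher one was *Bok*, which encodes an effector-like member (adjusted p = 0.0238 and 0.037 in these fits). Calls in the wider family were therefore not confined to BH3-only genes.

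**Figure D1:**
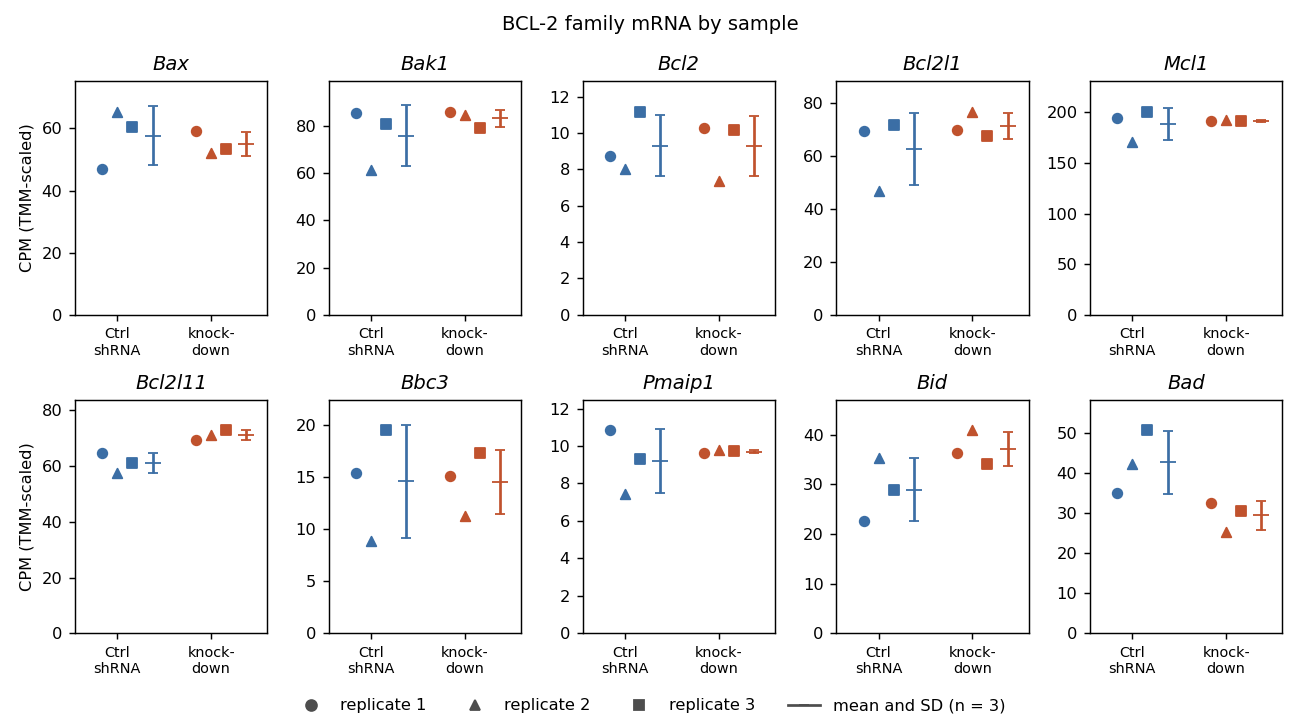
Level of each of the 10 members in each sample, in CPM from 0, with Ctrl shRNA in blue and Idh3α shRNA + Slc25a1 shRNA (knockdown) in red. Symbols mark the replicate number and bars the mean and SD (n = 3); the groups are apart for *Bcl2l11* (57.5 to 64.6 against 69.3 to 72.9 CPM) and *Bad* (35.0 to 50.6 against 25.3 to 32.3 CPM) and overlap for the other 8.

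*Bid* links death receptors to mitochondria: caspase-8 cleaves BID, and the fragment activates BAX and BAK. The gene (ENSMUSG00000004446) spans 120891930 to 120916853 of chromosome 6, minus strand, in the build GRCm38. *Bid* had 22.6, 35.3 and 28.8 CPM in the control samples, against 36.3, 40.9 and 34.1 CPM after silencing. The groups overlapped through Ctrl shRNA replicate 2, which lay above knockdown replicate 3, and without it every knockdown sample was above both controls. The mean was 28.9 ± 6.34 CPM (SD, n = 3) in the controls and 37.1 ± 3.48 CPM (SD, n = 3) in the knockdown, 28.2% above all controls and 44.2% above the mean of replicates 1 and 3. On the log2 scale the difference was 0.36 (standard error 0.17, 95% interval -0.06 to 0.78, edgeR adjusted p = 0.370) with all samples. Without Ctrl shRNA replicate 2 it was 0.52 (standard error 0.12, 95% interval 0.24 to 0.80, edgeR adjusted p = 0.0813). *Bid* thus passed neither edgeR test, and its call depended on the tool and on replicate 2: the adjusted p was 0.343 in DESeq2 with all samples, 0.00366 in DESeq2 without replicate 2 and 0.0362 in limma with sample quality weights. The last 913 bases of *Bid* and of its neighbour *Bcl2l13* overlap on opposite strands, and 628 bases (17.69%) of the exonic length of *Bid* are also exonic in *Bcl2l13*. *Bcl2l13* had a mean of 5620 reads per sample against 926 for *Bid*, and since the use of strand in counting is not given in the sources used here, reads there are uncertain. The log2 difference of *Bcl2l13* itself was 0.08, or -0.09 without replicate 2.

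*Bad* encodes a sensitizer that binds BCL-2 and BCL-XL and that survival kinases such as AKT keep inactive by phosphorylation. It lies on chromosome 19 from 6941861 to 6951898 on the plus strand (ENSMUSG00000024959). *Bad* had 35.0, 42.3 and 50.6 CPM in the control samples, against 32.3, 25.3 and 30.4 CPM after silencing. The groups did not overlap, though knockdown replicate 1 lay close below Ctrl shRNA replicate 1 (two-sided exact permutation p = 0.1, the smallest that 3 against 3 allow). The mean was 42.6 ± 7.84 CPM (SD, n = 3) against 29.4 ± 3.63 CPM (SD, n = 3). The estimate from edgeR was a log2 difference of -0.54 (standard error 0.16, 95% interval -0.93 to -0.14, edgeR adjusted p = 0.321). Leaving out Ctrl shRNA replicate 2, which for *Bad* was at 98.8% of the mean of the other controls, gave -0.55 (standard error 0.16, 95% interval -0.91 to -0.19, edgeR adjusted p = 0.123). The difference was therefore as large without that library as with it. The adjusted p was 0.135 in DESeq2, 0.0143 in DESeq2 without replicate 2 and 0.0179 in limma with sample quality weights. In GENCODE M21, whose model of *Bad* has 2558 exonic bases against 2007 in the deposited table, *Bad* shares 524 exonic bases with *Gpr137* on the other strand. *Gpr137* had 383 reads per sample against 1000 for *Bad* and a log2 difference of -0.06.

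*Bcl2l11* encodes BIM, an activator that binds all the anti-apoptotic members. It lies on chromosome 2 from 128126038 to 128162547 on the plus strand (ENSMUSG00000027381). *Bcl2l11* had 64.6, 57.5 and 60.9 CPM in the control samples, against 69.3, 71.0 and 72.9 CPM after silencing. The groups did not overlap and both were narrow (two-sided exact permutation p = 0.1). The mean was 61.0 ± 3.57 CPM (SD, n = 3) against 71.1 ± 1.79 CPM (SD, n = 3), 16.4% above the controls. The log2 difference was 0.22 (standard error 0.07, 95% interval 0.04 to 0.40, edgeR adjusted p = 0.339), and without Ctrl shRNA replicate 2 it was 0.17 (standard error 0.07, 95% interval 0.01 to 0.33, edgeR adjusted p = 0.228). DESeq2 gave an adjusted p of 0.243 and 0.244 for the same 2 sets of samples, and limma with sample quality weights gave 0.0386.

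The promoters of these 3 genes are shown because they are the members called by any fit or apart between the groups. Each is the sequence before the gene's start in the RefSeq table of GRCm38.p6, without bases of annotated exons, 5′ to 3′ on the gene's strand. Capitals mark the GC box, GGGCGG on either strand, to which SP1-type factors bind.
Bid, chr6:120916854-120917074, minus strand: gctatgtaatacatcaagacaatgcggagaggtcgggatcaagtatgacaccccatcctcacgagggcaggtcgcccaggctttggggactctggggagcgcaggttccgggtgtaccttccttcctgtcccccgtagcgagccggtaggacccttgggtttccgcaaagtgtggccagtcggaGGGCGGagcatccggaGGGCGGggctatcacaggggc
Bad, chr19:6941611-6941860, plus strand: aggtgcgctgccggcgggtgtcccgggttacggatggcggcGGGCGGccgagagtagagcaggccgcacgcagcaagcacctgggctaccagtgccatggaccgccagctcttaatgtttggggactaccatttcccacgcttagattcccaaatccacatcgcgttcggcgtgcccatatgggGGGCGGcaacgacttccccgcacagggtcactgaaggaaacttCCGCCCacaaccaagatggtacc
Bcl2l11, chr2:128125788-128126037, plus strand: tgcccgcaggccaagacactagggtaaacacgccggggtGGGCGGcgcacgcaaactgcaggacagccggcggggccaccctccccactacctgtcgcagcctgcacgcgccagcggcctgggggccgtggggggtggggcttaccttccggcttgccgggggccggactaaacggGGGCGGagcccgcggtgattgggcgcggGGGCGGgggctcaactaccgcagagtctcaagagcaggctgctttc
The *Bid* sequence (221 bases, ending 30 bases before the start) held 2 GC boxes, and those of *Bad* and *Bcl2l11* (250 bases each) held 3 each. *Bad* has another promoter in the table, with no GC box, and *Bcl2l11* has another, with a GC box. The CCAAT box, searched as CCAAT on both strands, was found once, in *Bcl2l11*, apart from the GC boxes. The E-box CACGTG and the p53 half-site by its usual consensus had 0 matches in all 3. Of 32851 RefSeq mouse promoters cut to 250 bases before the start, 32.74% held a GC box, 33.85% a CCAAT box, 6.02% this E-box and 7.13% a p53 half-site. Of the members, 9 were in the promoter table, with 15 promoters, and 10 of these held a GC box. A match of letters is a description of the sequence only.

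The remaining BH3-only members are *Bbc3* and *Pmaip1*. *Bbc3*, on chromosome 7 from 16308393 to 16318205, encodes PUMA, a direct target of p53. *Bbc3* had 15.4, 8.81 and 19.5 CPM in the control samples, against 15.1, 11.2 and 17.3 CPM after silencing. The groups overlapped fully, and Ctrl shRNA replicate 2 was at 50.5% of the mean of the other controls, the furthest below for any member. On the log2 scale the difference was -0.01 (95% interval -0.76 to 0.74, edgeR adjusted p = 0.993) with all samples and -0.27 (95% interval -0.68 to 0.14, edgeR adjusted p = 0.432) without that library. The interval with all samples runs from a mean 40.8% lower to 67.4% higher, so smaller changes were not detectable here.

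*Pmaip1* (ENSMUSG00000024521) encodes NOXA, which binds MCL1. *Pmaip1* had 10.9, 7.44 and 9.31 CPM in the control samples, against 9.61, 9.79 and 9.71 CPM after silencing. The knockdown samples lay close together inside the range of the controls. The estimate from edgeR was a log2 difference of 0.07 (95% interval -0.32 to 0.46, edgeR adjusted p = 0.835), and -0.07 (95% interval -0.34 to 0.21, edgeR adjusted p = 0.799) without Ctrl shRNA replicate 2.

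The effectors overlapped between the groups. *Bax* (chromosome 7, 45461697 to 45466898) had 47.1, 65.4 and 60.4 CPM in the control samples, against 59.3, 52.0 and 53.4 CPM after silencing. Ctrl shRNA replicate 2 was the highest of the 6 samples for *Bax*, and for no other member. The log2 difference was -0.07 (standard error 0.14, 95% interval -0.40 to 0.26, edgeR adjusted p = 0.816), and 0.02 (standard error 0.11, 95% interval -0.23 to 0.27, edgeR adjusted p = 0.928) without that library. In percent, the mean could be 24.2% lower to 19.9% higher with all samples, or 14.6% lower to 20.9% higher without replicate 2.

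*Bak1*, on chromosome 17 from 27019810 to 27029009, encodes BAK, which sits in the mitochondrial membrane even in healthy cells. *Bak1* had 85.6, 61.4 and 80.9 CPM in the control samples, against 86.2, 84.6 and 79.3 CPM after silencing. All samples but Ctrl shRNA replicate 2 lay close together, and that library was at 73.7% of the other controls. On the log2 scale the difference was 0.13 (standard error 0.13, 95% interval -0.19 to 0.46, edgeR adjusted p = 0.619), and -0.01 (standard error 0.07, 95% interval -0.17 to 0.15, edgeR adjusted p = 0.961) without it. In the fit without that library the interval ran from 10.9% lower to 11.0% higher. Of the exonic length of *Bak1*, 18.16% is shared with *Ggnbp1*, which had 52.2 reads per sample against 2280.

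Among the anti-apoptotic members, *Mcl1* encodes a short-lived protein that cells must keep making. *Mcl1* (chromosome 3, 95658788 to 95663176) had 194, 170 and 201 CPM in the control samples, against 191, 193 and 191 CPM after silencing. The knockdown mean was 192 ± 0.843 CPM (SD, n = 3) against 188 ± 16.0 CPM (SD, n = 3), and the groups overlapped. The estimate from edgeR was a log2 difference of 0.02 (standard error 0.09, 95% interval -0.18 to 0.23, edgeR adjusted p = 0.906), and -0.05 (standard error 0.06, 95% interval -0.20 to 0.09, edgeR adjusted p = 0.672) without Ctrl shRNA replicate 2. Without that library both remaining controls lay above all knockdown samples, by a few CPM.

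*Bcl2l1* encodes BCL-XL as its long isoform and a pro-apoptotic short isoform, which counts per gene do not separate. *Bcl2l1* (chromosome 2, 152780668 to 152831728) had 69.4, 46.9 and 71.6 CPM in the control samples, against 69.7, 76.8 and 67.7 CPM after silencing. Ctrl shRNA replicate 2 was the lowest, at 66.5% of the other controls, and the other 5 samples overlapped. The log2 difference was 0.19 (standard error 0.17, 95% interval -0.22 to 0.60, edgeR adjusted p = 0.580), and 0.01 (standard error 0.08, 95% interval -0.17 to 0.18, edgeR adjusted p = 0.964) without that library.

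*Bcl2*, the founding member of the family, had the lowest level per length of the 10 genes. *Bcl2* (chromosome 1, 106538178 to 106714274) had 8.72, 8.05 and 11.2 CPM in the control samples, against 10.3, 7.38 and 10.2 CPM after silencing. The means were 9.32 ± 1.65 and 9.28 ± 1.65 CPM (SD, n = 3 each), and the groups overlapped. On the log2 scale the difference was -0.01 (standard error 0.20, 95% interval -0.49 to 0.47, edgeR adjusted p = 0.988), and -0.11 (standard error 0.18, 95% interval -0.51 to 0.29, edgeR adjusted p = 0.772) without Ctrl shRNA replicate 2. At this depth and spread, a mean between 28.6% lower and 38.6% higher lay inside the interval.

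**Figure D2:**
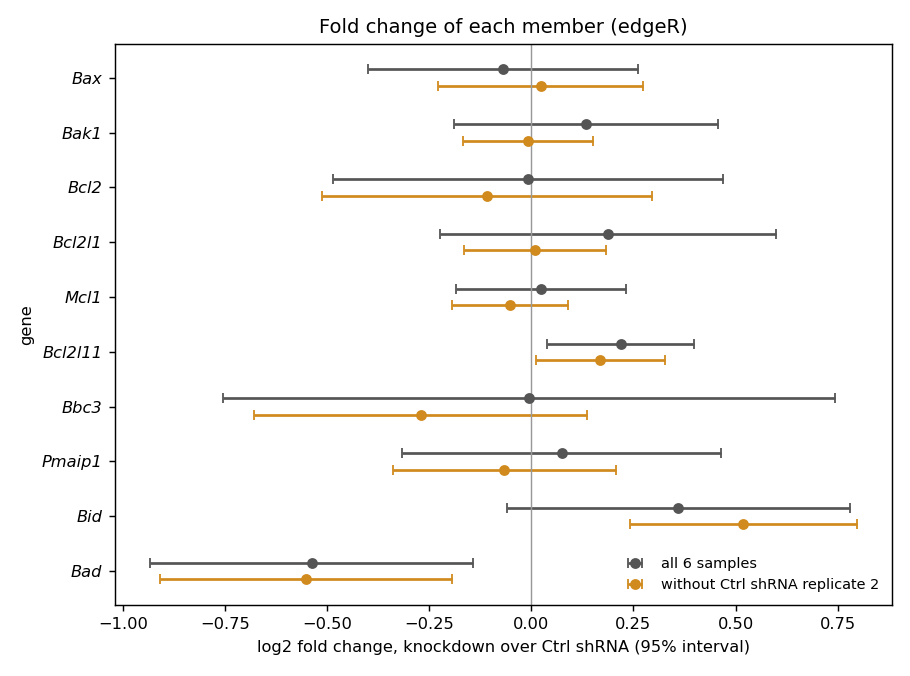
Log2 fold change of each member, knockdown over Ctrl shRNA, from edgeR; points are estimates and bars 95% intervals, in grey for all 6 samples and in orange without Ctrl shRNA replicate 2. The interval includes 0 for 8 of 10 members with all samples (not *Bcl2l11* and *Bad*) and for 7 of 10 without that library, where *Bid* also lies above 0. These intervals are per gene and not adjusted for the number of genes tested. No member was called in either fit by the adjusted p, and the share of all genes whose interval excludes 0 without that library was not counted.

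How far Ctrl shRNA replicate 2 set these values can be read from the samples. It was the lowest of the 6 samples for 6 members and the highest for 1. The SD of the controls exceeded that of the knockdown for all 10. Without that library the 95% interval was narrower for all 10 members, and the estimate changed sign for 4 of them, *Bax*, *Bak1*, *Mcl1* and *Pmaip1*, whose estimates lay between -0.07 and 0.13 on the log2 scale in both fits. Over all tested genes the spread between replicates, as edgeR's biological coefficient of variation, was 0.263 with that library and 0.102 without it.

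Pro- and anti-apoptotic members were then set against each other, as a description without a test. The median log2 difference was 0.07 for the 7 pro-apoptotic and 0.02 for the 3 anti-apoptotic members, and 0.05 for all 10, against -0.01 for all tested genes. Without Ctrl shRNA replicate 2 it was -0.01 for the pro-apoptotic and -0.05 for the anti-apoptotic members, and -0.03 for all 10, against -0.02 for all genes. Each single member lay between the 5th and 95th percentiles of all tested genes, -1.17 and 0.61 with all samples and -0.61 and 0.57 without that library. Estimates above 0 were found for 6 of 10 members with all samples and for 4 of 10 without it, beside 7460 of 15307 and 7434 of 15709 genes. The BH3-only genes differed among themselves, from -0.54 for *Bad* to 0.36 for *Bid*, whereas the 5 effectors and anti-apoptotic members lay between -0.07 and 0.19.

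Summed levels gave the balance in each sample. These are CPM per kb, CPM divided by the gene length in the deposited table, so that genes can be added and compared. The pro-apoptotic sum over the anti-apoptotic sum was 1.49, 1.84 and 1.66 in the controls and 1.65, 1.49 and 1.57 in the knockdown. The groups overlapped, with means of 1.66 ± 0.176 and 1.57 ± 0.0786 (SD, n = 3 each). The highest ratio was that of Ctrl shRNA replicate 2, where the anti-apoptotic sum was 60.9 against 72.9 and 75.6 CPM per kb in the other controls. The ratio of *Bax* to *Bcl2* was 31.4, 47.2 and 31.4 in the controls and 33.5, 41.0 and 30.5 in the knockdown, and again the groups overlapped with replicate 2 of the controls highest. Without that library both ratios still overlapped, with control means of 1.58 and 31.4 against 1.57 and 35.0. On the mean log2 scale, which weighs each gene alike, the pro- minus anti-apoptotic difference was 0.38 in the controls and 0.35 in the knockdown and overlapped. Without replicate 2 the control mean was 0.32 and the groups were narrowly apart, the knockdown higher (0.310 and 0.330 against 0.347 to 0.352).

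Within the BH3-only class the ratio of *Bid* to *Bad*, chosen after their values were seen, was 0.366, 0.473 and 0.322 in the controls and 0.634, 0.914 and 0.634 in the knockdown. The groups did not overlap, with means of 0.387 ± 0.0774 and 0.728 ± 0.162 (SD, n = 3 each), which that choice favours. *Bcl2l11* over *Mcl1*, chosen in the same way, was 0.142, 0.144 and 0.129 in the controls and 0.154, 0.157 and 0.163 in the knockdown, also without overlap. *Bid* over *Bcl2l1* overlapped, at 0.421, 0.974 and 0.520 against 0.672, 0.688 and 0.651, with Ctrl shRNA replicate 2 above all other samples. Without that library it was apart, with a mean of 0.471 in the controls against 0.671.

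**Figure D3:**
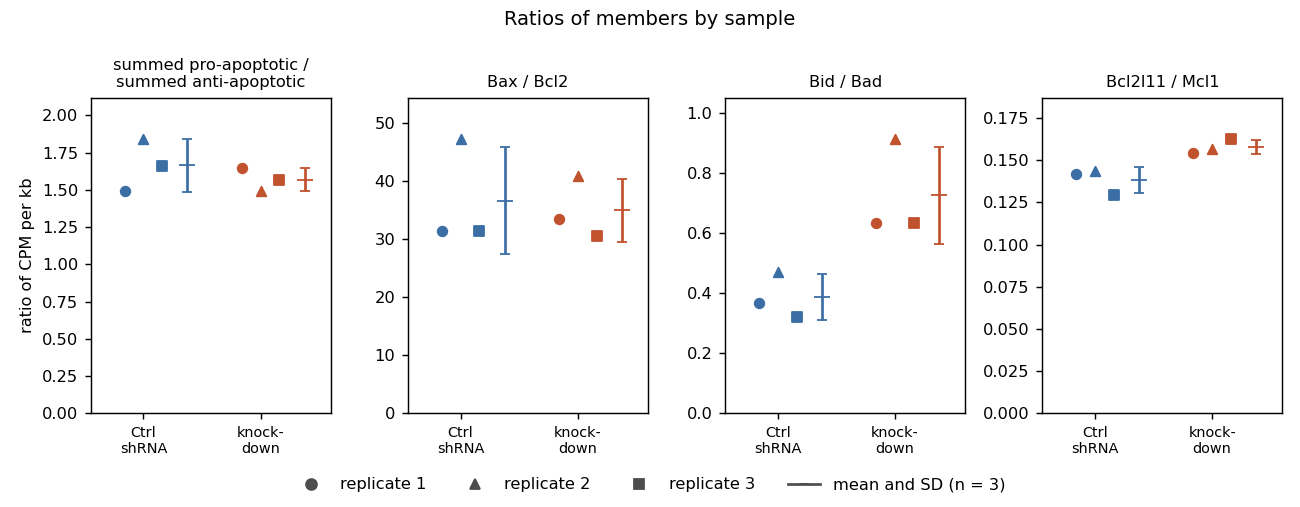
Ratios of CPM per kb in each sample, from 0, for the summed pro-apoptotic over the summed anti-apoptotic members, *Bax* over *Bcl2*, *Bid* over *Bad* and *Bcl2l11* over *Mcl1*; symbols mark replicates and bars the mean and SD (n = 3). The first pair of ratios overlaps between Ctrl shRNA (blue) and knockdown (red), and *Bid* over *Bad* is apart (0.322 to 0.473 against 0.634 to 0.914), as is *Bcl2l11* over *Mcl1*. *Bid* over *Bad* and *Bcl2l11* over *Mcl1* were chosen after their values were seen, which favours separation.

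Levels per length showed which members these cells transcribe most. *Mcl1* led with 55.1 ± 4.70 CPM per kb in the controls (SD, n = 3), above 93.27% of tested genes, and with 56.1 ± 0.247 in the knockdown. *Bax* (36.6 ± 6.02) and *Bak1* (31.6 ± 5.34) followed and overlapped with each other in both groups. Next in the controls came *Bad* (21.2 ± 3.91) and *Bcl2l1* (13.7 ± 2.99), which were apart, whereas in the knockdown *Bcl2l1* (15.6 ± 1.05) and *Bad* (14.6 ± 1.81) overlapped. With all samples no other places were exchanged between the groups. In controls 1 and 3 alone, *Bak1* (34.6) stood above *Bax* (34.1), and *Bbc3* (8.21) stood above *Bcl2l11* (7.82) and *Bid* (7.25 CPM per kb).

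*Bid* (8.15 ± 1.79), *Bcl2l11* (7.60 ± 0.444) and *Bbc3* (6.85 ± 2.54 CPM per kb) overlapped with each other in the controls and were apart from the genes above and below them. In the knockdown they stood at 10.5 ± 0.982, 8.85 ± 0.223 and 6.84 ± 1.44 CPM per kb and were apart from each other. *Pmaip1* came ninth with 3.48 ± 0.646 CPM per kb, and *Bcl2* last with 1.02 ± 0.181, above 23.17% of tested genes. The reads behind these levels ran from 147 (*Pmaip1*, Ctrl shRNA replicate 2) to 6012 (*Mcl1*, Ctrl shRNA replicate 1) in a sample.

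**Figure D4:**
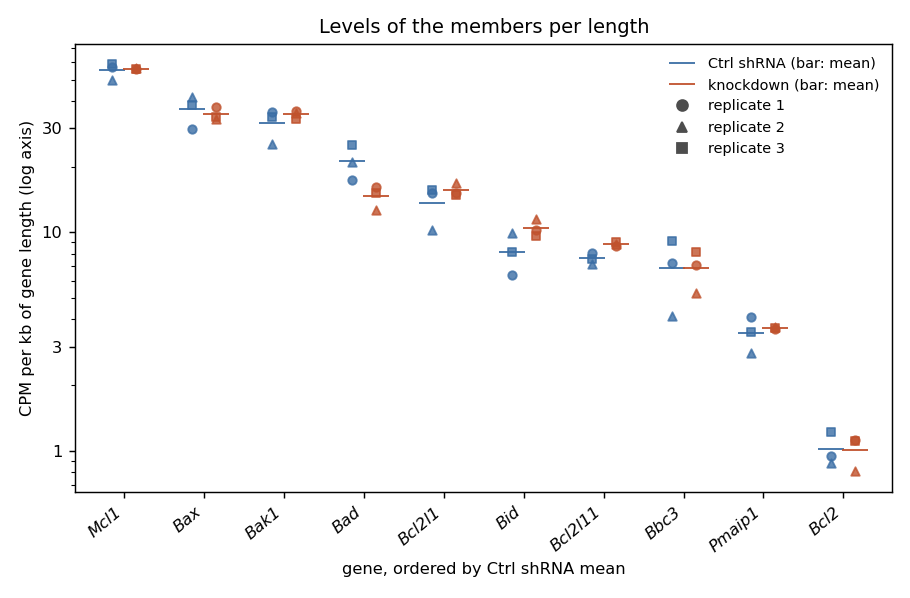
Level of each member in CPM per kb of gene length on a log axis, in order of the Ctrl shRNA mean; points are samples (symbol by replicate number) and short bars group means, Ctrl shRNA in blue and knockdown in red. *Mcl1* is highest (55.1 in the controls), *Bax* and *Bak1* overlap, *Bad* and *Bcl2l1* exchange places in the knockdown, and *Bcl2* is lowest (1.02).

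Of 17 further genes of the family, 11 were tested and 0 were called in edgeR, with or without Ctrl shRNA replicate 2, and 0 in DESeq2 with all samples. At an unadjusted p under 0.05, edgeR with all samples had 1 higher and 1 lower. Their median log2 difference was 0.06, and 2 were apart higher (*Bok* and, at a log2 difference of 0.17, *Bnip2*) and 2 apart lower (*Bnip3l* and, at -0.26, *Bnip1*), beside 14.7% and 10.7% of all tested genes. *Bnip3l* encodes NIX, a mitophagy receptor, and was the most abundant of them per length. *Bnip3l* had 298, 403 and 293 CPM in the control samples, against 248, 246 and 249 CPM after silencing, a log2 difference of -0.42 (edgeR adjusted p = 0.339), or -0.26 (edgeR adjusted p = 0.0834) without replicate 2, with an adjusted p from 0.00725 (DESeq2 without replicate 2) to 0.726 over the alternatives. *Bok* encodes an effector-like member, and it is named after its values were seen. *Bok* had 78.1, 61.4 and 88.7 CPM in the control samples, against 116, 95.7 and 105 CPM after silencing, with a log2 difference of 0.47 (edgeR adjusted p = 0.330), or 0.33 (edgeR adjusted p = 0.123) without replicate 2, and an adjusted p from 0.0238 (DESeq2 without replicate 2) to 0.675 over the alternatives.

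*Bmf*, a BH3-only gene also named after its values were seen, had 39.1, 31.8 and 42.6 CPM in the control samples, against 33.0, 29.9 and 34.4 CPM after silencing. Its groups overlapped through Ctrl shRNA replicate 2 and were apart without it, with a log2 difference of -0.22 (edgeR adjusted p = 0.409) and -0.34 (edgeR adjusted p = 0.1). The adjusted p of *Bmf* was 0.0432 in DESeq2 without that library and 0.0224 with sample quality weights, and it ran up to 0.911 over the alternatives. *Bcl2l2* (BCL-W), an anti-apoptotic gene, had the same low replicate 2 as *Bcl2l1*, with 33.6, 18.9 and 32.6 CPM in the controls against 34.2, 32.1 and 36.6 CPM. Its log2 difference was 0.27 (edgeR adjusted p = 0.537), or 0.04 (edgeR adjusted p = 0.823) without replicate 2. *Bcl2l10* and the near-identical copies *Bcl2a1a*, *Bcl2a1b* and *Bcl2a1d* had 0 counts in all 6 samples, and reads that match several copies may have been left uncounted.

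The proteins that act after the pore has formed were read from 14 genes, and all 14 were tested. In edgeR 0 were called with or without Ctrl shRNA replicate 2, and 0 at an unadjusted p under 0.05 or in DESeq2 with all samples. *Vdac1*, the outer membrane channel and most abundant gene of the list per length, stood at 226, 245 and 223 CPM against 247, 251 and 219 CPM. *Cycs*, which encodes cytochrome c, showed how far Ctrl shRNA replicate 2 could lie from the rest: 80.2, 527 and 152 CPM in the controls against 104, 72.4 and 94.0 CPM. Its log2 difference was -1.49 (edgeR adjusted p = 0.359), or -0.37 (edgeR adjusted p = 0.418) without that library.

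Genes that control the members were a list of 20, of which 19 were tested, and 13 had estimates above 0 with a median log2 difference of 0.06, beside 7460 of all 15307 genes and -0.01. In edgeR 0 were called with all samples (2 higher and 2 lower at an unadjusted p under 0.05, beside 7.47% and 6.65% of all tested genes), and 1 was higher without Ctrl shRNA replicate 2 and in DESeq2 with all samples. That gene was *Trp53*, which encodes p53, the activator of *Bbc3*, *Pmaip1* and *Bax*. *Trp53* had 142, 131 and 155 CPM in the control samples, against 207, 239 and 190 CPM after silencing, without overlap. The estimate from edgeR was a log2 difference of 0.57 (standard error 0.12, edgeR adjusted p = 0.211) with all samples and 0.50 (edgeR adjusted p = 0.0497) without replicate 2, and DESeq2 with all samples gave an adjusted p of 0.0148. Over all alternatives the adjusted p of *Trp53* ran from 6.05e-05 to 0.675. *Bbc3*, *Pmaip1* and *Bax* overlapped between the groups in the same samples, as given above. *Mdm2*, a p53 target and its inhibitor, was higher in every knockdown sample, at 72.4, 60.3 and 72.1 CPM against 76.5, 79.8 and 72.8 CPM. Its log2 difference was 0.16 (edgeR adjusted p = 0.422), or 0.07 (edgeR adjusted p = 0.608) without replicate 2. With all samples, 14.7% of all tested genes were apart with the knockdown higher. *Dynll1*, a dynein light chain, had the highest control mean of the list per length only through replicate 2, with 176, 1749 and 252 CPM in the controls and 184, 147 and 154 CPM in the knockdown. Its log2 difference was -2.16 (edgeR adjusted p = 0.352), or -0.41 (edgeR adjusted p = 0.177) without replicate 2. DESeq2 gave *Dynll1* an adjusted p of 0.228 with all samples and 0.0425 without replicate 2. In controls 1 and 3 the highest was *Tmbim6* (111 CPM per kb) and in the knockdown *Ywhaz* (118 CPM per kb).

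The death receptor route that leads to BID cleavage was read from 6 genes, all tested. With all samples 0 were called in edgeR, at an unadjusted p under 0.05 and in DESeq2. The fit without Ctrl shRNA replicate 2 called 1 higher, *Fas*, which encodes a death receptor. *Fas* had 10.1, 27.6 and 11.3 CPM in the control samples, against 20.5, 16.8 and 18.5 CPM after silencing. All knockdown samples lay between Ctrl shRNA replicate 2 and the other controls, so that the log2 difference was 0.19 (edgeR adjusted p = 0.821) with that library and 0.79 (standard error 0.12, edgeR adjusted p = 0.0198) without it. Over all alternatives the adjusted p of *Fas* ran from 2.24e-05 to 0.978. For *Bid*, in the same way, replicate 2 was the highest control, at 137% of the mean of the other controls. *Tnfrsf1a*, the TNF receptor and most abundant gene of the list, stood at 208, 196 and 207 CPM against 195, 214 and 184 CPM. *Casp8*, the protease that cleaves BID, stood at 58.0, 64.0 and 54.0 CPM against 55.1, 60.9 and 52.7 CPM (log2 difference -0.06, edgeR adjusted p = 0.765, and -0.0050 without replicate 2).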

How the data were processed

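RNA-seq of MLE12 cells was analysed in 3 Ctrl shRNA and 3 Idh3α shRNA + Slc25a1 shRNA samples, grouped by the sample labels. For each gene the authors deposited raw read counts, not normalized, and FPKM values, which divide these counts by length and by their own library size. The submitters' processing notes name HISAT2 2.0.5, StringTie 1.3.3b, featureCounts 1.5.0-p3 and the build mm10 (GRCm38), without roles, and the labels also name a Trinity assembly. The use of strand is not given in the sources used here. No per-sample column was left unused.

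Counts were filtered with filterByExpr, scaled by TMM and tested with edgeR 4.0.16 in R 4.3.3 (quasi-likelihood F-test, no covariate, Benjamini-Hochberg over all genes tested, threshold 0.05). The 95% intervals use the moderated degrees of freedom, and standard errors were derived from F. No sample was dropped or imputed in this fit. CPM per kb uses the deposited gene length. Of 10 members, 8 had the coordinates of GENCODE M21 exactly. Shared exonic bases were counted on that annotation. Replicates of a group differed by more than sampling noise (chi-square per degree of freedom 6.11 to 497). Alternatives were other scalings and filters, a replicate block, each library left out, DESeq2 1.42.0, limma 3.58.1 on log2(FPKM + 1) or log2(FPKM + 0.1), and voom with sample quality weights. The tests were also run on simulated counts. Python 3.11.15 with pandas 2.3.3 and, for figures, matplotlib 3.10.9 was used for the rest.

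Named are all members, both targets, and, from the other lists (family, outer membrane, regulators, death receptors), each gene called by edgeR or by DESeq2 with all samples or by edgeR without Ctrl shRNA replicate 2, and the most abundant gene of each list. *Bok*, *Bmf*, *Bnip1*, *Bnip2*, *Bcl2l2*, *Bcl2l13*, *Cycs*, *Mdm2*, *Casp8*, *Tmbim6*, *Ywhaz*, the markers and the genes at 0 counts lie outside that rule and were chosen after their values were seen. The members and lists were chosen with earlier results of these data known, and the lists come from general knowledge. Of the symbol *Ddit3*, which has more than 1 row in the table, the row with more counts was used. Some items are not reported here.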

Additional observations from a re-analysis of the deposited data

How the results depend on the processing

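No member was called in edgeR under any scaling, filter or left-out library. *Bid*, *Bcl2l11* and *Bad* kept the sign of their difference under all 16 alternatives: 0.22 to 0.58, 0.17 to 0.38 and -0.66 to -0.36 on the log2 scale. With 3 samples a group, Ctrl shRNA replicate 2 among them, the limit was not confined to small differences. With all samples edgeR did not call the silenced *Idh3α* and *Slc25a1* either (log2 difference -0.85 and -0.62, edgeR adjusted p = 0.254 and 0.104). A member without a call may therefore still differ.

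Over all genes, the 9 higher and 1 lower calls became 1 and 0 with library size only, 214 and 139 in DESeq2, 492 and 332 in DESeq2 without Ctrl shRNA replicate 2, 1327 and 971 with sample quality weights and 1144 and 1018 at an unadjusted p under 0.05. Lower calls were 3 without a count filter and 3 with limma at either pseudocount. With 1 library left out, higher calls ran from 0 to 175 and lower calls from 0 to 106, both largest without Ctrl shRNA replicate 2. Members called were 1 higher and 1 lower in DESeq2 without that library and at an unadjusted p under 0.05, and 2 and 1 with sample quality weights. The cause was not tested.

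The replicate numbers did not pair the samples (correlations of same-numbered deviations -0.155, -0.0920 and 0.0430). With the replicate block, 0 genes were called higher and 0 lower, and *Bbc3* turned to 0.0457.

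Library size only moved the median of all genes from -0.01 to 0.16 and that of the pro-apoptotic members to 0.21 (anti-apoptotic 0.18), with *Bax* at 0.13, *Bcl2* at 0.14 and *Bbc3* at 0.10. Without a count filter, *Bcl2* was at 0.0022 and *Bbc3* at 4e-04. With 1 library left out, the pro-apoptotic median ran from -0.01 to 0.21 (highest without Ctrl shRNA replicate 1) and its difference from the anti-apoptotic median from -0.0091 to 0.16. *Bax* ran from -0.19 to 0.0230, *Bak1* from -0.0080 to 0.23, *Mcl1* from -0.0532 to 0.0583, *Pmaip1* from -0.0658 to 0.21, *Bcl2* from -0.11 to 0.14 and *Bbc3* from -0.27 to 0.25. DESeq2 without Ctrl shRNA replicate 2 gave *Bax* 0.0301, *Bak1* -0.0012, *Mcl1* -0.0463 and *Pmaip1* -0.0591. *Bbc3* was at 0.0368 and 0.0491 in limma on log2(FPKM + 1) and log2(FPKM + 0.1). Sample quality weights gave *Bcl2l1* -0.0090 and *Mcl1* -0.0555. None of these passed its threshold.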

Other observations

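*Bag3*, which encodes a co-chaperone that binds BCL-2, belonged to the regulators. *Bag3* had 62.9, 60.6 and 57.4 CPM in the control samples, against 76.0, 103 and 74.7 CPM after silencing, without overlap. The log2 difference was 0.49 (edgeR adjusted p = 0.312), or 0.48 (edgeR adjusted p = 0.125) without Ctrl shRNA replicate 2, and the adjusted p ran from 0.00945 to 0.675 over the alternatives. Its relative *Bag1* stood at 138, 188 and 149 CPM against 128, 132 and 126 CPM, also without overlap, with a log2 difference of -0.30 (edgeR adjusted p = 0.356), or -0.16 (edgeR adjusted p = 0.216) without that library. Sample quality weights gave *Bag1* an adjusted p of 0.0401, and it ran up to 0.850 over the alternatives. *Pim1*, a kinase that phosphorylates BAD, stood at 36.9, 41.7 and 36.0 CPM against 32.3, 30.5 and 28.9 CPM, with a log2 difference of -0.32 (edgeR adjusted p = 0.312), or -0.26 (edgeR adjusted p = 0.141) without it. These genes were chosen after their values were seen.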
